A study of Mus musculus with 25 samples.

Results

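The receptor subunits for GABA and glutamate were described in lumbar dorsal root ganglia of mice with and without knee surgery. The members are the genes whose symbols name a subunit of a GABA-A, GABA-A rho or GABA-B receptor, or of an AMPA, kainate, delta, NMDA or metabotropic glutamate receptor, and they were chosen by a rule on symbols. Symbols were matched to probe sets that carry 1 symbol, and the 40 members found this way, of 30142 genes on the array, were followed here. Grm8 was found only in a probe set shared with another gene and was left out, and other subunits of these receptors were not analysed here.

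The tissue was the L3 to L5 dorsal root ganglia of male C57BL/6 mice, with no transgene or mutant allele named in the labels for any group. DMM mice had the medial meniscus of the right knee destabilized by surgery at 10 weeks of age, a model of knee osteoarthritis, sham mice had sham surgery in the same knee at the same age, and naive mice had none. Tissue was taken 4, 8 or 16 weeks later, when the mice were 14, 18 or 26 weeks old, and from naive mice of these ages, so that time after surgery and age run together. Each of 8 groups held 3 arrays, and 1 array stood for sham mice at 8 weeks, since the other samples did not meet the submitters' quality control. The labels do not say how many mice each array holds, nor whether ganglia of both sides were taken, and p-values measure the spread between arrays, which may be partly technical.

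GABA opens the chloride channels of GABA-A receptors, which are built from 5 subunits, and acts through GABA-B receptors, pairs of Gabbr1 and Gabbr2 that signal through G proteins. Glutamate opens cation channels of the AMPA, kainate and NMDA types and acts through the metabotropic receptors, which also signal through G proteins. The cell bodies of sensory neurons carry GABA-A receptors and are depolarized by GABA, because these neurons hold much chloride, and the same receptors on their central endings take part in presynaptic inhibition in the spinal cord. Kainate receptors that contain the product of Grik1 are known as the main type of small sensory neurons. A lower signal in whole ganglia can come from fewer cells of a type or from less RNA per cell, and these cannot be told apart.

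Values are deposited log2 intensities, where a difference of 1 is a doubling of the signal. A mean over the 25 arrays above 4.52 (40% of transcript probe sets lie below) was asked of a gene before testing, and this kept 20260 genes and 29 of the 40 members. That limit lies above the array medians of the background probe sets (3.31 to 3.58) and below those of the negative control probe sets (5.06 to 5.35), so a gene that was tested may still lie at the level of negative controls. Probe sets bind with different strength, so the levels below are set against control probe sets and not against each other.

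Among the GABA receptors, Gabbr1 (mean 13.16) and Gabbr2 (14.89) of the GABA-B receptor, and the alpha subunits Gabra2 (14.55), Gabra5 (9.97) and Gabra3 (9.41), stood above the 95th percentile of the negative controls on all 25 arrays. Gabrg1, a gamma subunit, did so on 15 arrays and Gabrb2, a beta subunit, on 16. Gabrb1, Gabrg3 and Gabra4 were tested but reached that percentile on 0 arrays. The means of Gabre (4.93) and Gabrr1 (5.05), an epsilon and a rho subunit, lay under the highest array median of the negative controls. Gabrp, Gabrq, Gabrd and Gabra6 were dim and not tested, and so were Gabrr2 and Gabrr3, rho subunits best known from the retina. Gabrd encodes the delta subunit of receptors outside synapses in the brain, and its 25 arrays ran from 3.93 to 4.20.

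Among the glutamate receptors all 4 AMPA subunits (Gria1 to Gria4) and all 5 kainate subunits (Grik1 to Grik5) were tested. Grik1 (mean 13.69), Gria4 (11.00), Grm7 (10.54), Gria3 (10.43) and Grik4 (10.35) were above the 95th percentile of the negative controls on all 25 arrays. Of the 6 NMDA subunits measured, Grin3a (7.76) and Grin2d (5.32) were tested, while Grin2a, Grin2b, Grin2c and Grin3b were dim, with means of 4.15 to 4.51. The metabotropic receptors Grm4 (7.46) and Grm7 were above the medians of the negative controls on all arrays, those of Grm2 and Grm5 on 0 arrays and that of Grm3 on 3. Grm6, known from retinal bipolar cells, was dim (4.04), and Grid1, a delta receptor subunit that binds synaptic adhesion proteins, had a mean of 6.50.

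**Figure D1:**
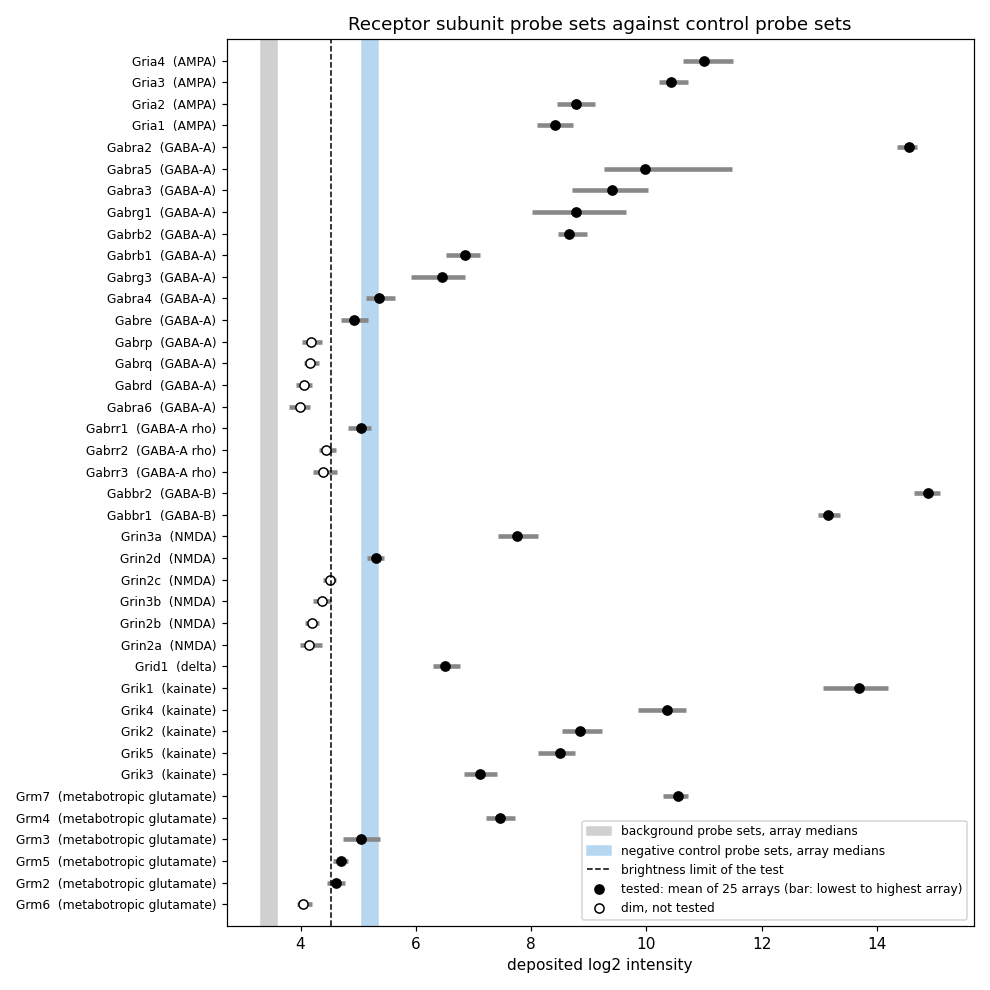
Deposited log2 intensity of the 40 receptor subunits, with the mean over 25 arrays (filled if tested, open if dim) and a bar from the lowest to the highest array. Vertical bands give the range of array medians of background probe sets (3.31 to 3.58) and of negative control probe sets (5.06 to 5.35), and 11 members lie left of the brightness limit of 4.52.

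The plot of levels against control probe sets also shows that most bars are short. The median residual SD of the members between arrays of a group was 0.13 on the log2 scale, and 0.12 over all genes tested. Gabrg1 had the widest spread (residual SD 0.49), followed by Gabra5 (0.45), and the lowest among tested members was 0.06 for Grin2d. Genes of GABA-A subunits lie in groups of neighbours in the mouse genome, with Gabrg1, Gabra2, Gabra4 and Gabrb1 on chromosome 5, Gabra5 and Gabrg3 on chromosome 7, Gabrb2 and Gabra6 on chromosome 11, and Gabre, Gabra3 and Gabrq on chromosome X. Of the 14 markers of central nervous tissue measured, 8 were dim. The mean of the 6 tested lay between 5.34 and 5.72 on every array, beside array medians of the negative controls of 5.06 to 5.35.

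DMM against naive mice asks whether surgery that destabilizes the knee goes with other receptor subunits in the ganglia, and 0 of the 29 tested members passed in limma after Benjamini-Hochberg adjustment over all genes (adjusted p under 0.05). This held for the average over the 3 times, where 0.0444% of all genes passed, and at 4 weeks (0.00987% of all genes), 8 weeks (0.0494%) and 16 weeks (0.0148%). With shares this low over all genes, a count of 0 among 29 members is near the background. At an unadjusted p under 0.05 the averaged comparison took 1 member, Gabrr1, beside 7.32% of all genes. Unadjusted calls at single times were 4 members at 4 weeks (8.80% of all genes), 2 at 8 weeks (8.49%) and 3 at 16 weeks (8.81%). In the averaged comparison 14 members were higher and 15 lower in DMM mice, with a median of -0.0044 on the log2 scale beside -0.0090 for all genes. The 95% interval of the averaged difference lay within 0.5 of zero on the log2 scale in 28 of 29 members, Gabra5 being the exception. At single times the intervals were wider and lay within 0.5 in 24 members at 4 weeks, 25 at 8 weeks and 26 at 16 weeks. Macrophage markers were higher in DMM than in naive mice in 11 of 13 tested genes on average (median 0.11), but lower in 12 of 13 at 4 weeks (median -0.15) and higher in all 13 at 16 weeks (median 0.43). Markers of myelinating Schwann cells were lower in 8 of 8 on average (median -0.12), at 4 weeks (median -0.12) and at 8 weeks (median -0.37), and higher in 7 of 8 at 16 weeks (median 0.18). By adjusted p 0 genes of either list passed in these comparisons. Their part in the members' differences was not tested.

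Gabrr1 had the smallest unadjusted p in the averaged comparison. It read 4.85, 4.83 and 5.05 in DMM mice at 4 weeks, against 5.21, 5.12 and 5.12 in naive mice, all at the level of negative controls. The groups did not overlap at 4 weeks and did at 8 and 16 weeks. The difference averaged over the times was -0.11 ± 0.05 (SE, limma adjusted p = 0.676), and at 4 weeks it was -0.24 ± 0.09 (limma adjusted p = 0.467).

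Gabra4, an alpha subunit, read 5.28, 5.14 and 5.14 in DMM mice at 4 weeks, against 5.32, 5.51 and 5.38 in sham mice and 5.37, 5.34 and 5.40 in naive mice. All 3 DMM arrays lay below the other 6 at that time, within 0.4 of them. These 3 readings lay within the range of the negative control array medians (5.06 to 5.35). The mean of Gabra4 over all arrays was 5.36, with 56.2% of negative controls below it. Its difference at 4 weeks was -0.19 ± 0.08 against naive mice and -0.22 ± 0.08 against sham mice (limma adjusted p of 0.518 and 0.986). At 16 weeks Gabra4 read 5.27, 5.41 and 5.45 in DMM mice and 5.45, 5.63 and 5.36 in sham mice, and the groups overlapped.

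At 8 weeks the largest difference was in Gabra5, the alpha 5 subunit of receptors that lie mostly outside synapses in the brain. It read 9.50, 11.49 and 9.92 in DMM mice, against 9.31, 9.48 and 9.62 in naive mice. The difference of 0.83 ± 0.34 (limma adjusted p = 0.480) rests on the second DMM array, and without it the difference was 0.24. That array also had the highest mean of nerve injury genes among the DMM and sham arrays, as described below. Grin3a, an NMDA subunit that lowers calcium entry, read 7.80, 8.08 and 7.87 in DMM mice at 8 weeks and 7.65, 7.50 and 7.71 in naive mice. The groups did not overlap, and the difference was 0.29 ± 0.13 (limma adjusted p = 0.526).

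At 16 weeks Grm4, a metabotropic receptor that inhibits transmitter release through Gi proteins, had the smallest p of the members. Its arrays read 7.39, 7.21 and 7.42 in DMM mice, against 7.43, 7.22 and 7.51 in sham mice and 7.65, 7.60 and 7.69 in naive mice. All DMM and sham arrays lay below all naive arrays. DMM differed from naive mice by -0.30 ± 0.09 (limma adjusted p = 0.395), which did not pass. Gabbr2, the GABA-B subunit that couples to G proteins, differed by -0.19 ± 0.07 (limma adjusted p = 0.506), with DMM values of 14.79, 14.75 and 15.02 and naive values of 15.04, 15.00 and 15.09.

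DMM against sham mice separates destabilization from the surgery itself, and 0 of 29 members passed in limma in the average over 4 and 16 weeks (0.00987% of all genes), at 4 weeks (0%), at 8 weeks (0%) or at 16 weeks (0.00494%). Unadjusted p under 0.05 took 1 member in the average (Gabra4, beside 4.88% of all genes), 3 at 4 weeks (4.68%), 4 at 8 weeks (8.43%) and 1 at 16 weeks (6.45%). In the average 9 members were higher and 20 lower in DMM mice, with a median of -0.05 beside -0.0044 for all genes. Gabra4, near the level of negative controls, differed by -0.16 ± 0.06 and Grm4 by -0.13 ± 0.06 (both limma adjusted p = 0.958). The 95% interval of the average lay within 0.5 of zero in 27 members, and Gabra5 and Gabrg1 reached beyond it. At 4 weeks alone it did so in 25 members and at 16 weeks alone in 26. Beside this, all 13 macrophage markers (median 0.28) and all 11 of fibroblasts and meninges (median 0.35) were higher in DMM than in sham mice, with 0 of either passed, and their part was not tested.

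Grm3, a Gi-coupled metabotropic receptor that astrocytes carry, showed opposite differences from sham mice at the early and the late time, at the level of negative controls. It read 5.05, 4.80 and 4.74 in DMM mice at 4 weeks, against 5.06, 5.37 and 5.04 in sham mice. At 16 weeks it read 5.13, 5.07 and 5.31 in DMM mice, against 5.06, 4.91 and 4.84 in sham mice. The early difference was -0.29 ± 0.10 (limma adjusted p = 0.986) and the late one 0.23 ± 0.10 (limma adjusted p = 0.724), and the groups overlapped in the first and not in the second. The change between the times, 0.52 ± 0.14, did not pass (limma adjusted p = 0.732), and in this interaction with sham mice 0 members passed beside 0% of all genes. At 16 weeks Grm7, another Gi-coupled receptor, was higher in every DMM array (10.61, 10.51 and 10.70) than in every sham array (10.50, 10.45 and 10.49), by 0.12 ± 0.07 (limma adjusted p = 0.786). The change of DMM minus naive between 4 and 16 weeks was led by Grm4 (-0.38 ± 0.12) and Grik4 (-0.48 ± 0.19), with limma adjusted p of 0.354 and 0.413, and 0 members passed beside 0.00494% of all genes.

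The 8-week comparison with sham mice uses the lone sham array, which is assumed to vary like the other groups. Gabra3 read 9.70, 9.16 and 9.35 in DMM mice and 8.79 in that sham array, a difference of 0.61 ± 0.23 (limma adjusted p = 0.432). Gria2, the AMPA subunit that makes the channel impermeable to calcium, read 8.48, 8.60 and 8.98 in DMM mice and 9.10 in the sham array, a difference of -0.41 ± 0.16 (limma adjusted p = 0.470). With 1 array on one side, the spread of the sham group at this time is unknown.

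**Figure D2:**
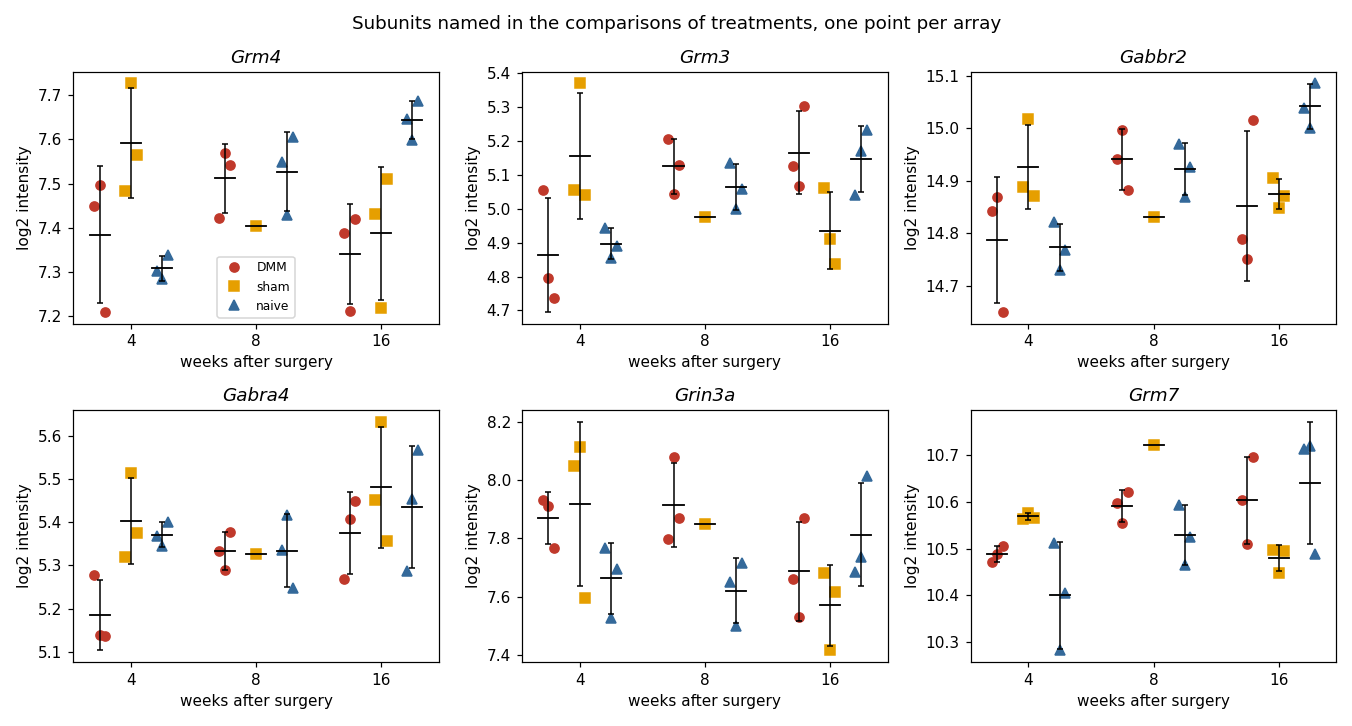
Deposited log2 intensity of 6 subunits by weeks after surgery, with 1 point per array. Within each time DMM (circles), sham (squares) and naive (triangles) run from left to right, lines are group means and error bars SD (none for the lone sham array at 8 weeks). In the Grm4 panel the naive arrays read 7.65, 7.60 and 7.69 at 16 weeks, above all DMM and sham arrays of that time, while at 4 weeks they lie below all sham arrays.

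Sham against naive mice asks what surgery alone goes with, and 0 members passed at 4 weeks (0.331% of all genes) or 16 weeks (0.00494%). At an unadjusted p under 0.05, 7 members were taken at 4 weeks (15.9% of all genes) and 7 at 16 weeks (10.8%). At 4 weeks 6 of the 7 were higher in sham mice, where 4.70% of all genes were called higher and 11.2% lower. At 16 weeks 6 of the 7 were lower, where 8.53% of all genes were called higher and 2.23% lower. With naive and sham arrays of equal replicate number at 16 weeks as pairs, a block added after the data were seen, 0 members passed, and 79 genes in all passed in place of 1. The plot of subunits named in the comparisons of treatments shows this crossing for Grm4 and Gabbr2.

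Grm4 read 7.48, 7.73 and 7.56 in sham mice at 4 weeks, against 7.30, 7.28 and 7.34 in naive mice. Every sham array lay above every naive array at 4 weeks and below every naive array at 16 weeks. The early difference was 0.28 ± 0.09 (limma adjusted p = 0.122) and the late one -0.26 ± 0.09 (limma adjusted p = 0.304). The change of this difference between the times, a comparison added after the data were seen, was -0.54 ± 0.12 for Grm4 (limma adjusted p = 0.0308), and Grm4 was the 1 member that passed, beside 2.09% of all genes. It lost the call without single arrays of either group, down to a change of -0.45 without the second sham array of 16 weeks (limma adjusted p = 0.0767).

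Gabbr2 read 14.89, 15.02 and 14.87 in sham mice at 4 weeks, against 14.82, 14.73 and 14.77 in naive mice. At 16 weeks it read 14.90, 14.85 and 14.87 in sham mice, and all 3 were below the naive arrays. The change was -0.32 ± 0.10 (limma adjusted p = 0.0862). Grm7, Grm3, Grik4, Grik3 and Grin3a had changes of the same sign, from -0.52 to -0.33, and did not pass (limma adjusted p = 0.0663 to 0.129). Naive arrays at 4 weeks and at 16 weeks enter all of these changes, so the values are not independent of each other. The macrophage list differed as well, with all 13 tested genes lower in sham than in naive mice at 4 weeks (median -0.56, 4 passed, beside 0.331% of all genes). Its part in the crossing of Grm4 was not tested.

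Between 16 and 4 weeks, a comparison of age as much as of time after surgery, several receptor subunits differed. Age, time after surgery and anything else shared by the arrays of a time cannot be told apart here. The words "with age" below stand for this comparison of times. Averaged over DMM, sham and naive mice, 8 of 29 members passed between 16 and 4 weeks, a share close to the 24.8% of all genes that passed. Gabra3 rose by 0.62, Grik1 by 0.50 and Grik5 by 0.20 (3 members, beside 10.0% of all genes called higher). Gabra5 fell by 0.66, Gria4 by 0.28, Grik3 by 0.18, Gabrb2 by 0.17 and Grid1 by 0.15 on the log2 scale (5 members, beside 14.8% of all genes called lower). By class this is 3 of 9 GABA-A subunits, 3 of 5 kainate subunits, 1 of 4 AMPA subunits and the delta receptor subunit, with 0 of 2 GABA-B, 0 of 2 NMDA and 0 of 5 metabotropic receptors. In a test of any difference among the 9 groups Gabra3 and Grik1 passed (limma F test, adjusted p = 0.00686 and 0.0289), beside 10.8% of all genes.

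Gabra3, the alpha 3 subunit of GABA-A receptors, was higher at 16 weeks in all 3 treatments. At 4 weeks it read 9.12, 8.97 and 9.28 in DMM mice, 8.95, 9.20 and 8.71 in sham mice and 9.50, 9.43 and 9.05 in naive mice. The arrays of 8 weeks read 9.70, 9.16 and 9.35 in DMM mice, 8.79 in the sham array and 9.29, 9.39 and 9.53 in naive mice. At 16 weeks the values were 9.67, 10.03 and 9.55 in DMM mice, 9.89, 9.58 and 9.56 in sham mice, and 9.71, 10.01 and 9.83 in naive mice. All 9 arrays of 16 weeks lay above all 9 arrays of 4 weeks, and the median of the 7 arrays of 8 weeks (9.35) lay between those of 4 weeks (9.12) and 16 weeks (9.71). The averaged difference was 0.62 ± 0.09 or 1.54-fold (limma adjusted p = 0.000122). By treatment it was 0.62 ± 0.16 (DMM), 0.72 ± 0.16 (sham) and 0.52 ± 0.16 (naive; limma adjusted p = 0.0433, 0.0317 and 0.0289). Within DMM mice Gabra3 was the 1 member that passed (2.87% of all genes) and within sham mice also (1.76% of all genes). All 3 single-treatment calls were lost when any of several single arrays was left out. The limma adjusted p then reached 0.210 in DMM mice (without the second array of 16 weeks), 0.141 in sham mice (without the first array of 16 weeks) and 0.150 in naive mice (without the third array of 4 weeks). Gabra3 was the 1 member whose 16-week and 4-week arrays did not overlap in any of the 3 treatments, beside 4.34% of all genes.

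Grik1, the kainate subunit GluK1, read 13.58, 14.02 and 14.14 in DMM mice at 16 weeks, against 13.40, 13.54 and 13.52 at 4 weeks. In sham mice it read 13.97, 13.78 and 13.68 at 16 weeks and 13.27, 13.75 and 13.57 at 4 weeks, and the naive arrays read 14.20, 13.91 and 13.99 at the late time and 13.56, 13.12 and 13.07 at the early one. The times overlapped in sham mice and did not in DMM or naive mice. The averaged difference was 0.50 ± 0.09 or 1.41-fold (limma adjusted p = 0.000782), and it passed under all 28 other settings tried apart from the nerve injury covariate described below. Grik5, which encodes a high-affinity kainate subunit that joins GluK1 to GluK3 in channels, differed by 0.20 ± 0.06 (limma adjusted p = 0.0154), and by 0.13 after quantile normalization, where it did not pass (limma adjusted p = 0.0879).

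Gabra5 read 9.78, 9.48 and 9.65 in DMM mice at 16 weeks, against 9.87, 10.21 and 10.36 at 4 weeks. In sham mice it read 9.88, 9.55 and 9.80 at 16 weeks and 10.57, 10.05 and 9.82 at 4 weeks. The naive arrays read 9.26, 9.60 and 9.85 at the late time and 11.08, 10.31 and 10.57 at the early one. The DMM and naive arrays did not overlap between the times, and the sham arrays did. Gabra5 fell by 0.66 ± 0.19 on average (limma adjusted p = 0.0173) and by 1.08 ± 0.34 in naive mice (limma adjusted p = 0.0307). The naive call was lost without any of 4 single arrays (limma adjusted p up to 0.127, without the first array of 4 weeks). With the nerve injury covariate described below the average and naive differences were 0.09 and 0.04, in a fit that cannot tell age from nerve injury genes. Gria4, the AMPA subunit that goes with fast channels in the brain, read 10.69, 10.73 and 10.68 in the naive arrays of 16 weeks, against 10.89, 11.14 and 11.19 in those of 4 weeks. It fell by 0.28 ± 0.09 on average (limma adjusted p = 0.0211). Gabrb2, Grid1 and Grik3 fell by 0.17, 0.15 and 0.18 (limma adjusted p = 0.0321, 0.0241 and 0.0409), and each lost the call when some single arrays were left out. Without the first DMM array of 4 weeks 4 members passed in place of 8, and Gria4, Gabrb2, Grid1 and Grik3 were the ones that did not (limma adjusted p = 0.0501 to 0.0941).

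**Figure D3:**
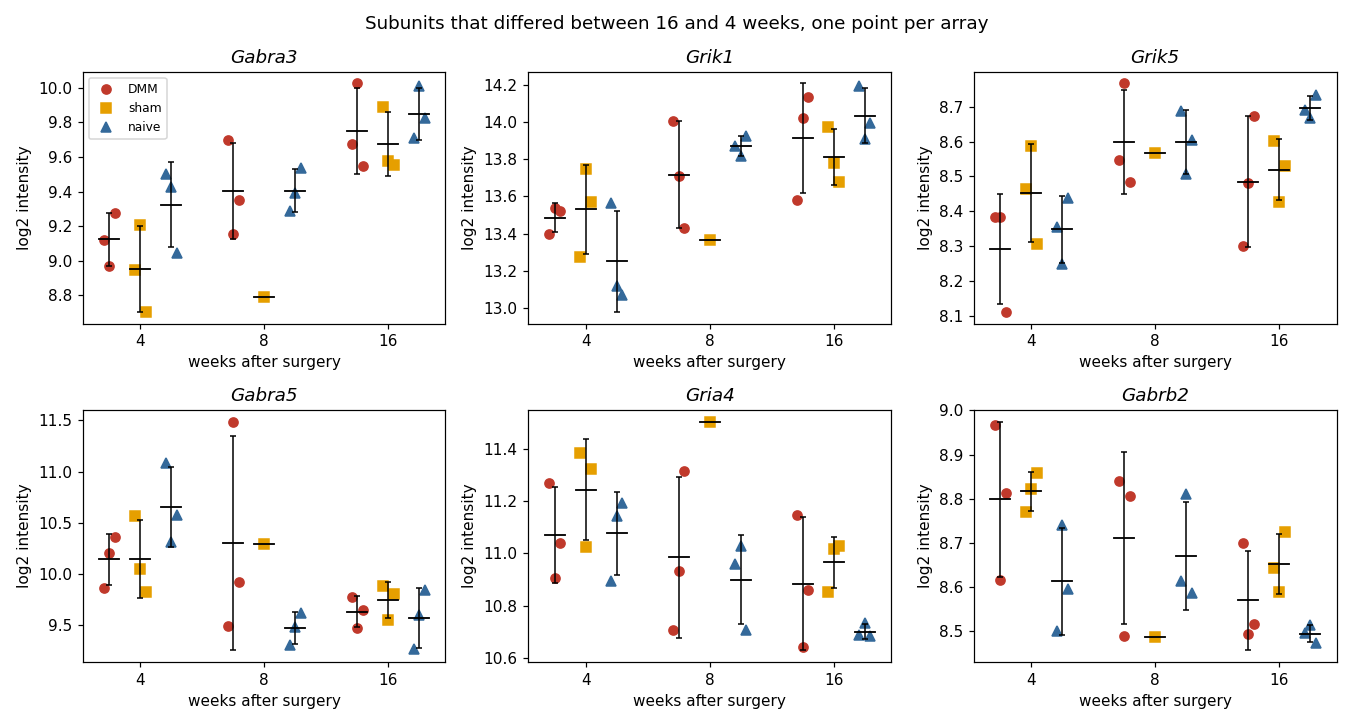
Deposited log2 intensity of 6 subunits that differed between 16 and 4 weeks, with 1 point per array, DMM, sham and naive from left to right within each time, group means as lines and SD as error bars. All Gabra3 arrays at 16 weeks lie above all those at 4 weeks, and the second DMM array at 8 weeks stands out in Gabra5 at 11.49.

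In naive mice alone 8 members passed between 16 and 4 weeks, beside 18.8% of all genes. Of these 7 rose (6.08% of all genes were called higher) and Gabra5 fell (12.7% were called lower). By size, Grik1 rose by 0.78 ± 0.16, Grik4 by 0.54 ± 0.13, Gabra3 by 0.52 ± 0.16, Grik5 by 0.35 ± 0.10, Grm4 by 0.34 ± 0.09, Gabbr2 by 0.27 ± 0.07 and Grm7 by 0.24 ± 0.07, with limma adjusted p from 0.0031 to 0.0289. Grik4, the other high-affinity kainate subunit, read 10.62, 10.40 and 10.59 in naive mice at 16 weeks, against 10.21, 9.93 and 9.86 at 4 weeks. Grm7 was the 1 of these 8 members with overlapping times. In all, 13 of 29 members did not overlap in naive mice, beside 38.9% of all genes. Without the first or the second naive array of 16 weeks, 5 members passed in place of 8. The averaged comparison holds these same naive arrays, so the lists of members are not independent.

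**Figure D4:**
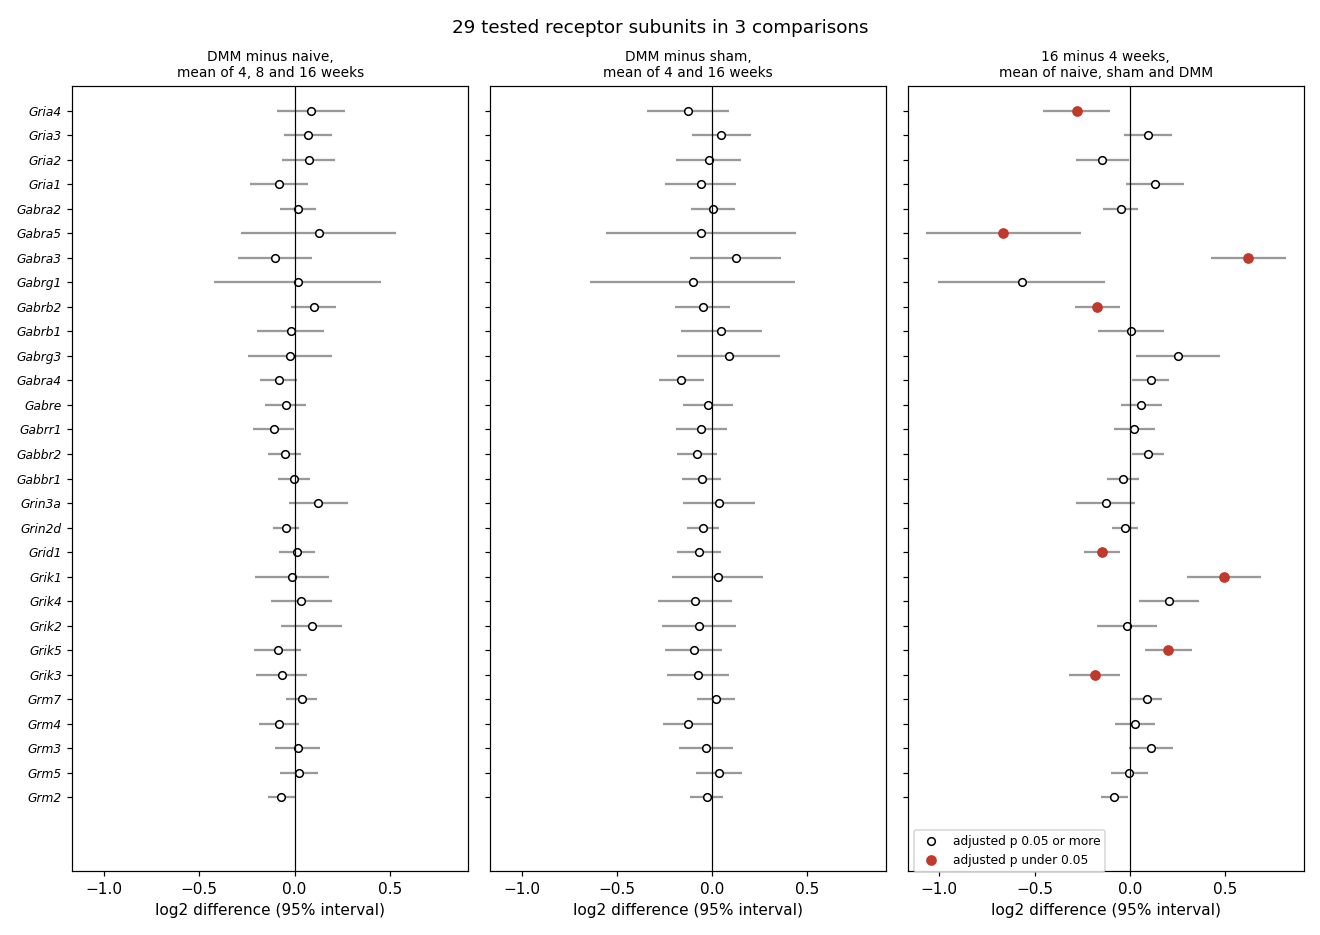
Log2 differences of the 29 tested subunits with 95% intervals in 3 comparisons: DMM minus naive mice averaged over 3 times, DMM minus sham mice averaged over 4 and 16 weeks, and 16 minus 4 weeks averaged over treatments. Filled points passed (adjusted p under 0.05): 0 in the first panel, 0 in the second and 8 in the third.

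The forest plot of 3 comparisons sets the sizes side by side: in DMM minus naive mice the members ran from -0.11 (Gabrr1) to 0.13 (Gabra5), in DMM minus sham mice from -0.16 (Gabra4) to 0.12 (Gabra3), and in 16 minus 4 weeks from -0.66 (Gabra5) to 0.62 (Gabra3). These averages can offset opposite differences at single times. Gabra5 differed between DMM and naive mice by -0.51 at 4 weeks and by 0.83 at 8 weeks. The median size of the difference with age was 0.11 over the members and 0.09 over all genes tested.

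Sequence upstream of an annotated start site is shown for the members of smallest adjusted p in each direction of the averaged age comparison that have an entry in the RefSeq promoter table (build GRCm38.p6). These are Gabra3 and Grik5 among those higher and Gabra5 and Gria4 among those lower. Each window holds the 250 bases before an annotated start, 5′ to 3′ on the strand of the gene. The windows of Gabra3 and Gria4 adjoin the 5′ end of the annotated gene. Those of Gabra5 and Grik5 lie inside the annotated gene, whose 5′ end is at 57591016 for Gabra5 and 25075694 for Grik5. These 2 windows therefore belong to an internal start and not to the sequence upstream of the whole gene. Capitals mark matches to the motifs searched on both strands. One is the GC box, spelled GGGCGG. Another is the TATA box, which shows here as TTTATA because it matched on the opposite strand. The cAMP response element, spelled TGACGTCA, and the E-box, spelled CACGTG, have no match in these windows.
Gabra3, chrX:72656920-72657169, minus strand: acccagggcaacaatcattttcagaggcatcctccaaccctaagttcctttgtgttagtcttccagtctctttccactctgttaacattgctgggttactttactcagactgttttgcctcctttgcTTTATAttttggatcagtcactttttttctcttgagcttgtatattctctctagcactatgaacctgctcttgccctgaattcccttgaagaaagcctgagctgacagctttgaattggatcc
Grik5, chr7:25072370-25072619, minus strand: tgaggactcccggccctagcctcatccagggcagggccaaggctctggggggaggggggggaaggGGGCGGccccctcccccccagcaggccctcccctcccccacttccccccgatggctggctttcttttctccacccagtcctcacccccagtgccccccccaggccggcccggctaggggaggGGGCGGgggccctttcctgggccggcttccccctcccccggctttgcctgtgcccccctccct
Gabra5, chr7:57510060-57510309, minus strand: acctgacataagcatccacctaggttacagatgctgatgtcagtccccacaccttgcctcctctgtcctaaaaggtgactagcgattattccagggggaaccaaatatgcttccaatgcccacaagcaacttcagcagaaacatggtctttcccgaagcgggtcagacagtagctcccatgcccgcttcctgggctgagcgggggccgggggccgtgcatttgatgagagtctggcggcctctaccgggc
Gria4, chr9:4796235-4796484, minus strand: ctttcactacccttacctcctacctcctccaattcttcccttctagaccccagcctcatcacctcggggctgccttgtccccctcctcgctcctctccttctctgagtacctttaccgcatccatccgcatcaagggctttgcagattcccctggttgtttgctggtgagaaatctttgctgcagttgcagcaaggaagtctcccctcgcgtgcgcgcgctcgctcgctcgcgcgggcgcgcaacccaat
The Gabra3 window holds 0 CG dinucleotides, while the median over 32851 windows was 6, and those of Grik5, Gabra5 and Gria4 hold 8, 9 and 16. The Grik5 window has 2 GC boxes, and the Gabra3 window has the letters of a TATA box in the reverse orientation. A window was found for 30 of the 40 members, and 16 of these 30 hold a GC box, beside 32.7% of all windows. For the other motifs the counts were 3 of 30 for the TATA box (12.4% of all windows), 0 of 30 for the cAMP response element (1.5%) and 0 of 30 for the E-box (6.0%). A match or its absence describes these letters only.

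Genes of nerve injury also differed between 16 and 4 weeks on the same arrays. The list of nerve injury genes (Atf3, Sprr1a, Gal and others that sensory neurons switch on after damage to their axons) had 11 tested genes, and all 11 were lower at 16 than at 4 weeks on average (median -0.92). By adjusted p 10 passed, beside 14.8% of all genes called lower. Its mean stood at 7.08 to 7.48 on the 9 arrays of 16 weeks. At 4 weeks it stood at 7.59 to 9.18 in DMM mice, 7.89 to 8.89 in sham mice and 9.12 to 9.33 in naive mice, so the naive mice without surgery were the highest. At 8 weeks the second DMM array (9.33), the sham array (9.06) and the third naive array (8.25) stood above the other arrays of that time.

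Gabra5 had the steepest slope on this list. In a fit with the groups as terms, added after the data were seen, its slope was 0.56 ± 0.14 log2 units per unit of the list within groups (limma adjusted p = 0.0537), and that of Gabrb2 was -0.16 ± 0.04 (limma adjusted p = 0.0552). Neither passed, and 0 members did, beside 1.15% of all genes. Without the second DMM array of 8 weeks the count over all genes was 15 in place of 233. With the list as a covariate, 3 members passed with age on average (Gabrb2, Gabrg3 and Grik5) beside 9.07% of all genes, and 6 in naive mice (Gabrb2, Gabrg3, Gabbr2, Grik4, Grik5 and Grm4), also beside 9.07%. In that fit Gabra5 differed by 0.09 ± 0.23 (limma adjusted p = 0.856), opposite in sign to the fit without the list and smaller than its error. Gabra3 differed by 0.43 ± 0.14 and Grik1 by 0.45 ± 0.15, in the same direction as before and no longer past the threshold (limma adjusted p = 0.0642 and 0.0717). The list and age moved together, so a fit with both has wide errors and cannot tell them apart fully. Macrophage markers were near 0 with age in DMM mice (median 0.01), higher in 9 of 13 in sham mice (median 0.13, 1 passed) and lower in all 13 in naive mice (median -0.62, 10 passed). Over all genes 1.76% passed in sham mice, and 12.7% were called lower in naive mice. On average over treatments 10 of 13 macrophage markers were lower (median -0.19). Of these markers 5 passed lower and 1 higher, beside 14.8% and 10.0% of all genes. Their part in the differences of the members was not tested.

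**Figure D5:**
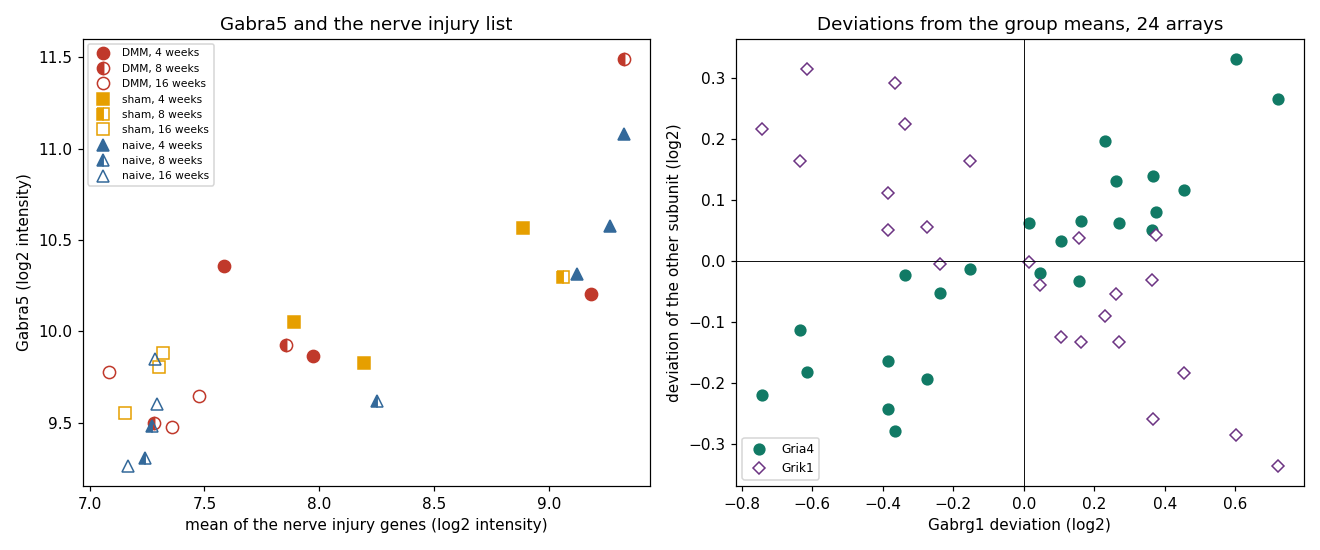
Left, Gabra5 against the mean of 11 nerve injury genes (both log2 intensity) on 25 arrays, marked by treatment and time; the second DMM array of 8 weeks and a naive array of 4 weeks lie at the top right (Gabra5 at 11.49 and 11.08). Right, deviations of Gria4 (filled circles) and Grik1 (open diamonds) from their group means against those of Gabrg1 on 24 arrays (r = 0.888 and -0.869).

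Several members varied together between replicates of a group. Gabrg1, the member with the widest spread, was compared with the other 28 tested members, 8 marker lists, the array median and the second probe set of Gabra2, 38 relations in all, using deviations from the group means on 24 arrays. This relation was looked for after the data were seen, and p-values come from 100000 permutations within groups. Gria4 (r = 0.888, rho = 0.895) and Gria2 (r = 0.822, rho = 0.839) varied with Gabrg1, and Grik1 varied against it (r = -0.869, rho = -0.856), with adjusted p of 0.00038, 0.00089 and 0.00038 for r and 0.00038, 0.00063 and 0.00038 for rho. The unadjusted permutation p for Gria4 was 1e-05, the smallest these permutations can give. Without the 2 arrays farthest from the median of Gabrg1, r was 0.894 for Gria4, 0.795 for Gria2 and -0.864 for Grik1. In all 9 members passed for r, 4 with Gabrg1 (Gria4, Gria2, Gabra2 and Gria3) and 5 against it (Grik1, Gabrb1, Gabrg3, Gria1 and Grik4). The share of all genes that vary with Gabrg1 in this way was not computed. This count therefore has no background beside it and is not known to be particular to receptor subunits. The second probe set of Gabra2, with a mean of 13.85 beside 14.55 for the brighter one, did not follow (r = 0.085, permutation p = 0.70). That gene's 2 probe sets therefore disagree, though both are bright. The group comparisons above used the brighter one, whose group means spanned 0.18, against 0.49 for the other.

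Single arrays show this. Among DMM mice at 16 weeks Gabrg1 read 9.26, 8.15 and 8.20, Gria4 read 11.15, 10.64 and 10.86, and Grik1 read 13.58, 14.02 and 14.14. Among sham mice at 4 weeks Gabrg1 read 9.34, 8.23 and 9.35, Gria4 read 11.38, 11.02 and 11.32, and Grik1 read 13.27, 13.75 and 13.57. In both groups the array or arrays high in Gabrg1 read higher in Gria4 and lower in Grik1 than the rest of the group. In the sham mice the third array, the highest in Gabrg1, still lay 0.04 above the group mean of Grik1. Of the marker lists, that of myelinating Schwann cells varied with Gabrg1 (r = 0.731, rho = 0.717, permutation adjusted p = 0.0092 and 0.011). The sensory neuron list had r of -0.578 (rho = -0.563, permutation adjusted p = 0.10 and 0.13), and the satellite glia list had r of 0.171 (rho = 0.178, permutation adjusted p = 0.61 and 0.58). The Schwann cell list mean ran from 9.87 to 10.71 over the 25 arrays. The part of these lists in the relation was not tested.

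Gabrg1 itself read 9.36, 8.74 and 9.28 in DMM mice, 9.34, 8.23 and 9.35 in sham mice and 8.59, 9.36 and 9.65 in naive mice of the early time. At 16 weeks it read 9.26, 8.15 and 8.20 in DMM mice, 8.26, 9.26 and 9.16 in sham mice, and the 3 naive arrays (8.02, 8.28 and 8.22) were all low. The averaged difference between 16 and 4 weeks was -0.57 ± 0.21 (limma adjusted p = 0.0541) and did not pass.

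Other genes of the pathways were read from lists chosen by function. Of the genes for GABA synthesis, transport and receptor anchoring 16 of 20 measured were tested, and with age on average 1 rose and 3 fell, with a median of 0.00070. These 4 of 16 genes are a share near the 24.8% of all genes called. Dbi, the diazepam binding inhibitor that modulates GABA-A receptors, fell by 0.48 ± 0.05 (limma adjusted p = 1.24e-05), Gabarapl1, of the family that traffics GABA-A receptors, by 0.45 ± 0.07 (limma adjusted p = 0.000107), and Lhfpl4, which anchors GABA-A receptors at inhibitory synapses, by 0.42 ± 0.07 (limma adjusted p = 0.000189). Kctd16, an auxiliary subunit of GABA-B receptors, rose by 0.24 ± 0.08 (limma adjusted p = 0.0341). In DMM against naive and DMM against sham mice averaged over times 0 genes of this list passed, by adjusted p in limma, and 3 and 2 had an unadjusted p under 0.05 (7.32% and 4.88% of all genes).

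Of the genes for glutamate release, uptake and receptor partners all 37 measured were tested, and with age on average 6 rose and 6 fell, with a median of -0.01, beside the 10.0% of all genes called higher and 14.8% called lower. Auxiliary subunits of AMPA receptors went both ways: Cacng3, Cacng2 and Cnih2 rose by 0.36, 0.31 and 0.29 (limma adjusted p = 0.00311, 0.0166 and 0.0122), and Cacng5 and Cacng4 fell by 0.26 and 0.23 (limma adjusted p = 0.0199 and 0.0217). Neto1, an auxiliary subunit of kainate receptors, fell by 0.66 ± 0.11 (limma adjusted p = 0.000272), and its arrays of 16 and 4 weeks did not overlap in any treatment. Nptx1, a pentraxin that clusters AMPA receptors, fell by 0.54 ± 0.12 (limma adjusted p = 0.00327), and Homer1, a scaffold of metabotropic receptors, by 0.18 ± 0.04 (limma adjusted p = 0.0011). Grip1, Shank1 and Grina rose by 0.17 to 0.24 and Slc1a1, a neuronal glutamate transporter, fell by 0.14. In the averaged DMM comparisons 0 genes of this list passed, with 3 unadjusted calls against naive mice (7.32% of all genes) and 1 against sham mice (4.88%). Of 7 genes for glycine receptors and transporters 2 were bright enough to be tested, and 0 passed with age or in either averaged DMM comparison. With age Glrb, the beta subunit of the glycine receptor, differed by -0.01 and Slc6a9, a glycine transporter, by 0.17 (limma adjusted p = 0.888 and 0.167).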

How the data were processed

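RNA of L3 to L5 dorsal root ganglia was labelled with biotin by the standard Affymetrix protocol, per the labels' protocols. The authors deposited 1 log2 intensity per probe set for 72685 probe sets (6729 of them controls) and 25 arrays. The values, between 2.23 and 19.70, fit a log2 scale, which no label states. How the authors normalized and summarised the arrays is not given in the sources used here.

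Probe sets with 1 symbol in the platform annotation were used, the one of highest mean over 25 arrays for each of 30142 genes. Symbols were updated in 827 cases. The 20260 genes with a mean above the 40th percentile of the transcript probe sets entered a limma model (limma 3.58.1 under R 4.3.3) of the 9 groups on the 25 arrays (16 residual degrees of freedom, 3.28 prior), moderated by eBayes, two-sided, with Benjamini-Hochberg adjustment over all genes and a threshold of 0.05. Errors beside differences are standard errors. There were 16 comparisons and an F test over the 9 groups. A 95% interval at the median spread reached 0.20 to each side for 3 arrays against 3. For arrays their number limits the precision.

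Named members are those past the threshold and, where none passed, those of smallest p. Members and lists were chosen with earlier results of these data known. The change of sham minus naive mice, the nerve injury covariate and slope, and the correlations of Gabrg1 (numpy 2.4.6) were added after the data were seen. The fit was tested on simulated data with known shifts in the naive arrays of 16 weeks. Against those of 4 weeks it recovered 57 of 100 genes shifted by 0.5 on the log2 scale and 95 of 100 shifted by 1. It also called 10 unshifted genes. The simulation shifted 100 genes at each size among 20260, with noise independent between genes. In the data 3811 genes passed in this comparison, and 0 to 10 in DMM against naive or sham mice. The adjusted threshold moves with such counts, so the rates hold for the simulated setting only. Differences under 0.5, and some above, can therefore be missed. Over 21 pairs of arrays with equal replicate numbers the correlation of deviations ran from -0.36 to 0.32 and was over 0.1 in 8, of which 7 were at 16 weeks. The numbers were not taken as pairs in general. The 3 pairs of naive and sham arrays of 16 weeks were all over 0.1 (0.11 to 0.31), and a block for these pairs was added. Alternatives were filters, normalizations, array weights, fits of only the arrays compared, a replicate block and leaving out each array. Promoter sequences are those of RefSeq (GRCm38.p6). They were searched as letters, with no test.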

Additional observations from a re-analysis of the deposited data

Results flagged for a closer look

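The changes of 4 members between 4 and 16 weeks were picked out because every array moved to opposite sides of the other treatment at the 2 times. Grm4 differed between sham and naive mice by 0.28 at 4 weeks and -0.26 at 16 weeks, a change of -0.54 (limma adjusted p = 0.0308). Gabbr2 had a change of sham minus naive of -0.32 (limma adjusted p = 0.0862) and Grik3 of -0.43 (limma adjusted p = 0.128). Grm7 had a change of DMM minus sham of 0.21 (limma adjusted p = 0.838), with all DMM arrays below all sham arrays at 4 weeks (10.47, 10.49 and 10.51 against 10.56, 10.58 and 10.57) and above them at 16 weeks. Of these, Grm4 passed the test of the change, and the other 3 did not. The rule was applied to the members only, in each pair of treatments, and the share of all genes that cross in this way was not computed. With 3 arrays against 3, groups that do not differ fail to overlap in 10% of comparisons at a single time. A crossing asks for no overlap at both times and in opposite directions, so that 10% is not its background. Whether 4 members are more than the background is therefore not known.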

How the results depend on the processing

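Under the other settings (filters on dim genes, quantile, loess and median normalization, array weights, only the arrays compared, a replicate block and each array left out), 0 members passed in DMM against naive or DMM against sham mice, as in the results above, and no named difference turned its sign. With each array left out, the count of members past the threshold ran from 4 to 10 for age on average, 5 to 8 for naive mice, 0 to 1 for sham and for DMM mice at 16 against 4 weeks and 1 to 4 for the F test. For sham mice at 16 against 4 weeks it was 2 with the filter at the negative control medians, quantile or loess normalization or array weights, and 0 with arrays centred on their medians or with only the arrays compared. For DMM mice it was 0 with no filter, with centred arrays or with only the arrays compared. The F test gave 5 with loess normalization and 4 with array weights. Sham against naive mice at 4 weeks gave 1 with array weights. The added nerve injury covariate gave 3 members in place of 8 for age on average and 0 in place of 1 in sham mice. With it Gabra5 differed by 0.0393 in naive mice (limma adjusted p = 0.961) and 0.0869 on average (limma adjusted p = 0.856). That fit cannot tell age from the injury list, so these values decide nothing about either. For the change of sham minus naive mice the count ran from 0 to 2 with an array left out, and for the slope on the injury list also from 0 to 2. With the replicate block the counts stayed at 8 for age on average, 8 in naive, 1 in sham and 1 in DMM mice, and 2 in the F test, and the block changed no call among the members. A block only over the naive and sham arrays of 16 weeks changed none either, with Grm4 at -0.54 for the change of sham minus naive mice (limma adjusted p = 0.0317). Counts over all genes moved more. With an array left out, DMM minus naive mice at 16 weeks went from 3 to between 1 and 325. Sham mice at 16 against 4 weeks went from 357 to between 7 and 268, and DMM mice from 582 to between 9 and 771. Sham minus naive mice at 4 weeks went from 67 to between 0 and 11. Under the other settings the ranges were 0 to 17, 0 to 916, 4 to 1233 and 0 to 628, in this order. Centring each array on its median gave correlations with Gabrg1 of 0.866 for Gria4 and -0.899 for Grik1. The causes of these shifts were not tested.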
